A study of Mus musculus with 19 samples.

Results

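The 7 genes described here are the glucocorticoid receptor gene Nr3c1 and 6 genes that the receptor is known to induce: Sgk1, Fkbp5, Zbtb16, Tsc22d3, Per1 and Klf9. They were taken by name from a given list, which was drawn up with earlier results of these data known, and all 7 were found among the 15634 genes of a hippocampus table and the 13783 genes of a sorted-cell table. All mice, whose strain, sex and age are not given in the sources used here, had received a split dose of 1100 cGy over the whole body and then 5000000 bone marrow cells depleted of T cells. Mice with chronic graft-versus-host disease, called GVHD, also received 500000 splenic T cells, and the mice called TCD, the control without GVHD, received none. The hippocampus table holds 3 libraries of whole hippocampus from GVHD mice and 3 from TCD mice, all of day 80 after transplantation. The sorted-cell table holds cells isolated by flow cytometry on day 70: marrow-derived donor macrophages (6 libraries) and host microglia (4 libraries) from GVHD mice, and host microglia (3 libraries) from TCD mice. TCD host library 1 was grouped by its title, since its description carries Syn in place of TCD and the meaning of Syn is not given. Genotype (donor or recipient) and exposure to the irradiation cannot be told apart from cell type in a difference between donor and host cells.

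Corticosterone, the main glucocorticoid of mice, enters cells and binds the receptor, which is held ready by heat shock proteins and their co-chaperones. The bound receptor moves to the nucleus, where it raises the transcription of genes with receptor binding sites near them and lowers that of many inflammatory genes. Microglia, macrophages and hippocampal neurons all carry it, and the hippocampus takes part in the feedback that limits hormone release. Fkbp5 encodes a co-chaperone that lowers the receptor's affinity for hormone, and Sgk1 a kinase that regulates ion channels and transporters. Tsc22d3 encodes GILZ, a leucine zipper protein that restrains inflammatory transcription factors. Zbtb16 encodes the zinc finger repressor PLZF, Per1 a repressor of the circadian clock, and Klf9 a zinc finger transcription factor that hormones induce in neurons.

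Sequence upstream of the genes is shown first, because the receptor's own binding motif was found in a Sgk1 window. RefSeq windows on GRCm38.p6, reaching 250 bases upstream of an annotated start, were matched for 5 members (13 windows: 6 of Sgk1, 3 of Tsc22d3, 2 of Per1, 1 each of Fkbp5 and Klf9). Those of Nr3c1 and Zbtb16 were not matched. Motifs were searched on both strands: the full receptor palindrome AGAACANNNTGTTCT, its hexamer AGAACA, the E-box CACGTG that clock factors bind, and the cyclic AMP response element TGACGTCA. The full palindrome lay in 3 of 32851 windows of all genes, which is 0.00913%, and 1 of the 3 belonged to Sgk1. Hexamers lay in 16.1% of all windows, E-boxes in 6.02% and cyclic AMP response elements in 1.55%. The first 120 bases of the 3 member windows with a palindrome or an E-box are given 5′ to 3′ on the gene's strand, with the matched letters in capitals. In the Sgk1 stretch the first capitals are an E-box overlapping a hexamer, and the second are the palindrome, which includes 2 hexamers.
Sgk1, chr10:21993640-21993759, plus strand: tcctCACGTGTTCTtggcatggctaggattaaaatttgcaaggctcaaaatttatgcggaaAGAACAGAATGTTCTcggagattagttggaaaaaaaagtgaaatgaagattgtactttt
Per1, chr11:69098699-69098818, plus strand: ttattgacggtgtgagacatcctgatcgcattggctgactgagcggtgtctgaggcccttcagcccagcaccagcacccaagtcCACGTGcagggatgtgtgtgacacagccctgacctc
Fkbp5, chr17:28486280-28486399, minus strand: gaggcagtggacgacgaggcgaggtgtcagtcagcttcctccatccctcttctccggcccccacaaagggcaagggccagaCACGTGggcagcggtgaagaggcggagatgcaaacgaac
The Sgk1 palindrome starts 189 bases before the start of its window's transcript and 965 bases before the most downstream Sgk1 start in the table. The E-box starts 166 bases before the Per1 start and 169 bases before the Fkbp5 start. Of the remaining windows, Sgk1 windows held a hexamer 195 and 13 bases before their starts and a Tsc22d3 window held one 185 bases before. The Klf9 window held none of the 4 motifs. These matches describe letters only, and binding was not measured.

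The deposited values are normalised counts, whose library totals differed somewhat between groups. In sorted cells they were 1051504.8 to 1090630.5 in donor, 890564.5 to 961739.8 in GVHD host and 947439.2 to 954056.0 in TCD host libraries. In hippocampus they were 982114.4 to 988044.4 in GVHD and 1019597.9 to 1078635.6 in TCD libraries. The estimated number of reads per library was 16673614 to 18546935 in hippocampus and 7901523 to 35844764 in sorted cells. The summed value of 6 macrophage and monocyte markers was 11712 to 20128 in donor libraries, 502 to 1015 in GVHD host libraries and 324 to 921 in TCD host libraries. The summed value of 6 microglia markers was 6600 to 10511 in donor libraries, 31867 to 38431 in GVHD host libraries and 37536 to 46027 in TCD host libraries, and no marker of either list was at 0 in any sorted library. The summed value of 5 neutrophil markers was 10.3 to 556 in donor libraries, 0.255 to 17.2 in GVHD host libraries and 1.69 to 100.1 in TCD host libraries, with 3 of the 5 at 0 in GVHD host library 3, 1 in GVHD host library 2 and 2 in TCD host library 3. Limma called 5 of 5 of them higher in donor than in GVHD host cells, beside 19.4% of all tested genes called higher. Retnlg reached a value of 1 on 1 side only, and without it this was 4 of 4. Against TCD host cells 3 of 5 were called higher, beside 18.4% of all tested genes. The part of the neutrophil markers in the members' differences was not tested. The summed value of 4 astrocyte markers was 34.5 to 71.6 in donor libraries, 320.8 to 443 in GVHD host libraries and 243 to 293 in TCD host libraries. Most of the host sum was Slc1a3, a glutamate transporter gene, with means of 29.1 in donor, 358 in GVHD host and 267 in TCD host cells. The 4 markers went both ways. Limma called 1 higher and 1 lower in donor than in GVHD host cells, beside 38.6% of all tested genes called. Against TCD host cells 2 were higher and 1 lower, beside 37.0%. Without Aldh1l1, which reached a value of 1 on 1 side only, this was 1 higher and 1 lower of 3. The part of the astrocyte markers was not tested either. Library 1 of each sorted group carries the number API_183 in its title and every other sorted library API_197, and the meaning of this number is not given. It was a term of the model.

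In the brains of GVHD mice, donor macrophages and host microglia differed in receptor target genes, but not in 1 common direction. Sgk1 and Fkbp5 were lower in donor cells, by about 5-fold and 2-fold, and Tsc22d3 and Zbtb16 were higher, while Nr3c1 did not pass the test. Differences were tested with limma on log2 of the value plus 1, with 0.05 as the threshold of the p adjusted over all 13086 tested genes, below which a gene counts as called. Of the 6 members tested, 4 were called, 2 higher and 2 lower, against 38.6% of all tested genes called in this comparison (19.4% higher and 19.2% lower). Zbtb16 had values of at least 1 in the 6 donor libraries only, so it entered the test through the group in which it was high. Without it the count was 3 of 5. The groups did not overlap for the 4 called members, against 27.9% of all tested genes. The median log2 fold change of the 6 members was 0.09, beside 0.04 over all genes.

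**Figure D1:**
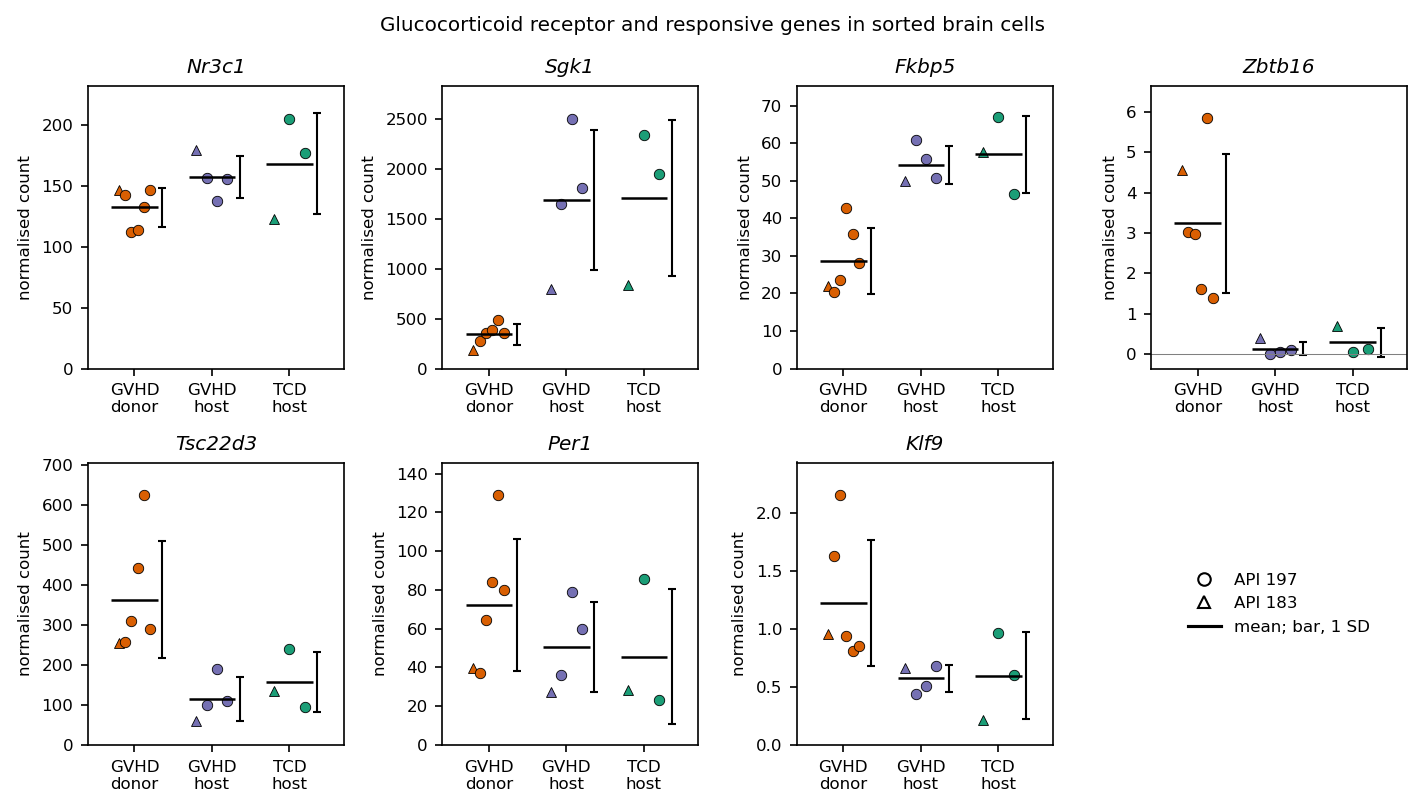
Normalised count of each of the 7 genes (vertical axes, each from its own 0) in every sorted library of GVHD donor macrophages, GVHD host microglia and TCD host microglia; triangles are API_183 and circles API_197 libraries, the line is the group mean and the bar 1 SD. All 6 donor libraries lie below all host libraries for Sgk1 and Fkbp5 and above all of them for Tsc22d3 and Zbtb16.

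Nr3c1 (ENSMUSG00000024431, chromosome 18, 39410545 to 39519421 on GRCm38, minus strand) was transcribed in all sorted groups, and its values overlapped between them. Its value was 112 at the lowest, 138 at the median and 147 at the highest of the 6 donor libraries, against 179, 156, 137 and 156 in GVHD host libraries 1 to 4. The donor range reached into the host range at 1 host library, number 3. Means were 132 ± 15.9 in donor cells and 157 ± 17.1 in GVHD host cells (SD, n = 6 and 4). The log2 fold change was -0.25 ± 0.14 (SE; 95% confidence interval -0.57 to 0.06, limma adjusted p = 0.195).

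Sgk1 (ENSMUSG00000019970, chromosome 10, 21882184 to 21999903, plus strand) showed the widest difference among the members that were lower in donor cells. Its value was 185 at the lowest, 357 at the median and 484 at the highest donor library, against 797, 1653, 2509.7 and 1809 in GVHD host libraries 1 to 4. The highest donor library stayed below the lowest host library. The mean was 342 ± 102 in donor cells and 1692 ± 703 in GVHD host cells (SD, n = 6 and 4), with a log2 fold change of -2.35 ± 0.16 (SE, limma adjusted p = 1.48e-07). The API_183 library was the lowest of each sorted group, and the difference was -2.10 on the log2 scale between the single API_183 libraries and -2.41 between the API_197 libraries.

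Fkbp5 (ENSMUSG00000024222, chromosome 17, 28399094 to 28517527, minus strand) had 20.4 at the lowest, 25.8 at the median and 42.7 at the highest donor library, against 49.9, 60.9, 55.7 and 50.7 in GVHD host libraries 1 to 4. Donor libraries varied over more than a doubling while the 4 host libraries lay close together. The means were 28.7 ± 8.78 and 54.3 ± 5.07 in donor and GVHD host cells (SD, n = 6 and 4), and the log2 fold change was -0.95 ± 0.19 (SE, limma adjusted p = 0.00155).

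Tsc22d3 (ENSMUSG00000031431, chromosome X, 140539528 to 140600659, minus strand) ran the other way. Its value was 255 at the lowest, 300.3 at the median and 627 at the highest donor library, against 61.3, 99.6, 191 and 111 in GVHD host libraries 1 to 4. The means were 364 ± 146 in donor cells and 116 ± 54.4 in GVHD host cells (SD, n = 6 and 4). The log2 fold change was 1.63 ± 0.31 (SE, limma adjusted p = 0.00113), a 3.09-fold difference with a 95% confidence interval of 1.93 to 4.95. Donor library 5, with the highest value, is also the deepest library.

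Zbtb16 (ENSMUSG00000066687, chromosome 9, 48654297 to 48836222, minus strand) was near the detection limit in host cells. It had 1.40 at the lowest, 3.00 at the median and 5.85 at the highest donor library, an estimated 18 to 195 reads. GVHD host libraries 1 to 4 had 0.390, 0, 0.0637 and 0.113, an estimated 10, 0, 1 and 1 reads. A count of 0 in library 2 allows a value of up to 0.190, that of 3 reads, for counting error only. The log2 fold change of 1.85 ± 0.25 (SE, limma adjusted p = 6.62e-05) is on the log2 scale of the value plus 1 and understates a change between values this low. It was 2.51 with 0.5 and 0.67 with 5 added to the value in place of 1, and called under both.

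Per1 (ENSMUSG00000020893, chromosome 11, 69095217 to 69109960, plus strand) had 37.1 at the lowest, 72.2 at the median and 129 at the highest donor library, against 27.2, 36.3, 78.7 and 59.8 in GVHD host libraries 1 to 4. The ranges overlapped widely, and the log2 fold change of 0.43 ± 0.38 (SE, limma adjusted p = 0.399) was not called. With single libraries left out it ran between 0.23 (without GVHD host library 2) and 0.62 (without GVHD host library 3). The sample descriptions and the titles each give 4 donor and 4 GVHD host libraries the same API number and running number. Within API_197 they join different libraries. The pairs of the descriptions deviated together from their group means, with API means not removed, and what the shared numbers mark is not given. With those pairs as a block in limma, Per1 was called, at 0.62 ± 0.11 (SE, adjusted p = 0.00577). The ratio of donor to host was 1.47, 1.78, 1.64 and 1.34 in the 4 pairs, above 1 in 4 of 4. No other member's call changed with this block. With the replicate number of the titles as the block instead, Per1 was not called, at 0.19 ± 0.41 (SE, limma adjusted p = 0.759).

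**Figure D2:**
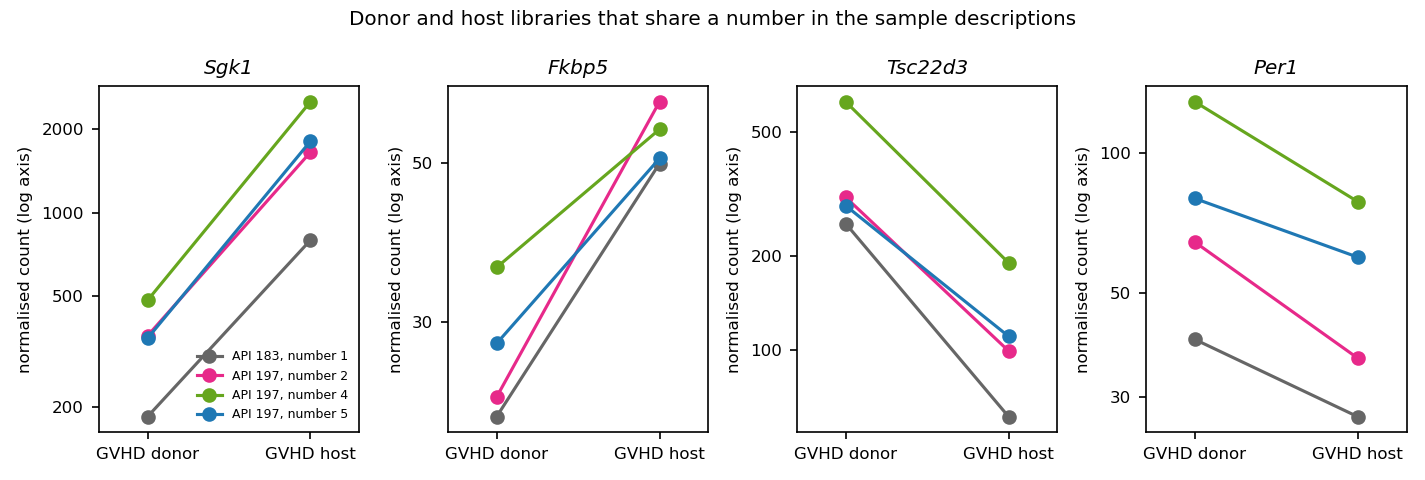
Normalised count (log axis) of Sgk1, Fkbp5, Tsc22d3 and Per1 in the 4 GVHD donor and GVHD host libraries that share an API number and a running number in the sample descriptions, each pair joined by a line. Every line rises to the host for Sgk1 and Fkbp5 and falls to the host for Tsc22d3 and Per1, where the donor to host ratio is 1.34 to 1.78.

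Klf9 (ENSMUSG00000033863, chromosome 19, 23141226 to 23168134, plus strand) was barely transcribed in sorted cells. It had 0.811 at the lowest, 0.948 at the median and 2.16 at the highest donor library, against 0.663, 0.442, 0.510 and 0.681 in GVHD host libraries 1 to 4. These are an estimated 11 to 27 reads in donor and 6 to 17 reads in host libraries. TCD host libraries 1 to 3 had 0.216, 0.966 and 0.604. Only 2 libraries reached a value of 1, so Klf9 did not enter the main test. Fitted without the filter on low values, its log2 fold change was 0.45 ± 0.18 (SE, limma adjusted p = 0.0697), which was not called.

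Host microglia of GVHD and TCD mice did not differ detectably in any of the 6 tested members. None was called, against 0.107% of all tested genes (14 of 13086), and 897 genes had an unadjusted p under 0.05. The groups overlapped for all 6, against 6.55% of all tested genes without overlap. Sgk1 had 797, 1653, 2509.7 and 1809 in GVHD host libraries 1 to 4, against 842, 2348 and 1954 in TCD host libraries 1 to 3. In both groups the API_183 library was the lowest. The SDs were wider than the difference of the means, 1692 ± 703 in GVHD host and 1714 ± 781 in TCD host cells (n = 4 and 3). Tsc22d3 had the lowest fold change, -0.49 ± 0.37 (SE, limma adjusted p = 0.869), with 61.3, 99.6, 191 and 111 in GVHD host libraries against 136, 239.7 and 93.9 in TCD host libraries. Per1 had the highest, 0.20 ± 0.44 (SE, adjusted p = 0.943 by limma), with TCD host values of 28.3, 85.5 and 23.1. The 95% confidence intervals of the 6 members together spanned 0.408-fold to 2.24-fold, so changes of about 2-fold in single members were within the error. For Sgk1 alone the interval was 0.703-fold to 1.23-fold. Without TCD host library 1, whose description carries Syn, no member was called either, and the log2 fold change of Nr3c1 was -0.34 ± 0.14 (SE, limma adjusted p = 0.749).

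Against TCD host microglia, which lived in brains without GVHD, donor macrophages of GVHD mice showed the same 4 members called, Sgk1 and Fkbp5 lower and Tsc22d3 and Zbtb16 higher. This comparison shares the donor libraries with the previous donor comparison, so the 2 are not independent. The 4 of 6 called members (3 of 5 without Zbtb16) stand beside 37.0% of all tested genes (18.4% higher and 18.6% lower). The groups did not overlap for these 4, nor for 29.5% of all tested genes. The log2 fold change of Sgk1 was -2.45 ± 0.17 (SE, limma adjusted p = 2.89e-07), and that of Fkbp5, with 57.6, 67.0 and 46.5 in TCD host libraries, was -1.03 ± 0.21 (SE, limma adjusted p = 0.00203). Zbtb16, with 0.692, 0.0604 and 0.121 in TCD host libraries, an estimated 16, 1 and 1 reads, had 1.74 ± 0.27 (SE, limma adjusted p = 2.69e-04), or 2.33 with 0.5 and 0.65 with 5 added to the value. These 3 calls held with any single library left out.

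The call of Tsc22d3 was less firm here. Its log2 fold change was 1.14 ± 0.35 (SE, limma adjusted p = 0.0204), but 0.66 ± 0.34 (adjusted p = 0.173) without TCD host library 3, its lowest host library in this group. With the replicate number of the titles as a block it was 0.98 ± 0.39 (SE, limma adjusted p = 0.0838). Nr3c1 was not called with all libraries. It had 123, 204 and 177 in TCD host libraries 1 to 3 and a log2 fold change of -0.33 ± 0.16 (SE, limma adjusted p = 0.135). Without TCD host library 1 this was -0.57 ± 0.13 (SE, limma adjusted p = 0.00527), and the difference was -0.56 among API_197 libraries and 0.25 between the single API_183 libraries. Per1 was not called (0.63 ± 0.41, SE, limma adjusted p = 0.271), and its fold change rested on single TCD host libraries, at 0.05 without library 3 (limma adjusted p = 0.944) and 1.12 without library 2 (limma adjusted p = 0.0765).

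**Figure D3:**
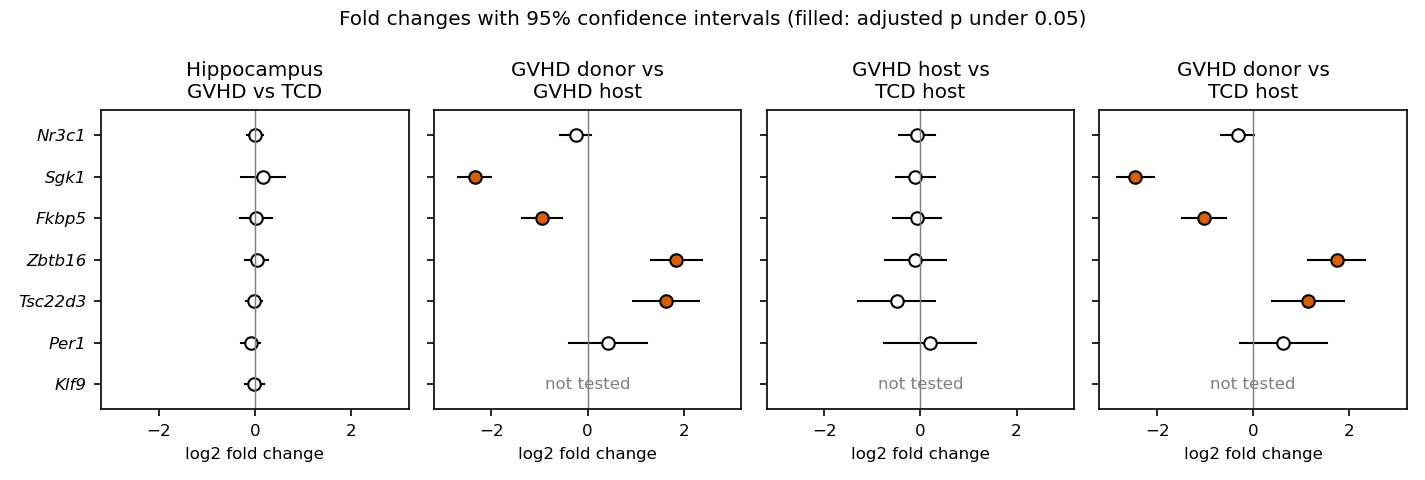
Log2 fold change (points) with 95% confidence interval (lines) of each member in the 4 comparisons, positive where the first-named group is higher; filled points have a limma adjusted p under 0.05. Sgk1 and Fkbp5 lie left of 0 and Tsc22d3 and Zbtb16 right of 0 in both donor comparisons, while in the hippocampus and in GVHD against TCD host cells no point is filled.

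By mean level per kilobase of annotated exon, Tsc22d3 and Sgk1 changed places between the 2 cell types, though not in every donor library. In donor macrophages the mean level per kilobase was highest for Tsc22d3 (83.8) and Sgk1 (69.8), followed by Nr3c1 (17.2), Per1 (12.9) and Fkbp5 (3.04). Tsc22d3 had 144 and Sgk1 98.8 in donor library 5. Sgk1 was the higher in donor libraries 3 (73.6 against 71.3) and 6 (72.1 against 67.0), and Tsc22d3 in the remaining donor libraries. In GVHD host microglia Sgk1 stood far above the rest at 345, followed by Tsc22d3 (26.6), Nr3c1 (20.4), Per1 (8.97) and Fkbp5 (5.73). The order in TCD host microglia was that of GVHD host microglia for these 5 genes, with Sgk1 at 349.6 and Tsc22d3 at 36.1. Zbtb16 and Klf9 were below 1 per kilobase in all 3 groups.

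Within the groups, 4 of the target genes, picked by the values below, varied together from library to library. After group and API means were removed from the 13 sorted libraries (9 residual degrees of freedom), Pearson's r was 0.89 for Tsc22d3 with Per1, 0.80 for Sgk1 with Per1, 0.80 for Sgk1 with Tsc22d3, 0.67 for Fkbp5 with Tsc22d3, 0.66 for Fkbp5 with Per1 and 0.48 for Sgk1 with Fkbp5. Nr3c1 did not follow them, with r between -0.28 and -0.04. Zbtb16 had 0.35 with Tsc22d3, 0.32 with Sgk1, 0.17 with Per1 and -0.09 with Fkbp5. Thus Sgk1 and Tsc22d3, which differed between the cell types in opposite directions, were high in the same libraries within a cell type. Donor library 5 and GVHD host library 3, which share a number in the descriptions, were the highest of their groups for Sgk1, Tsc22d3 and Per1, and TCD host library 2 was the highest of its group for all 3. Fkbp5 was highest in donor library 4, GVHD host library 2 and TCD host library 2. These correlations describe libraries that share scaling, sort and handling, and carry no p.

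**Figure D4:**
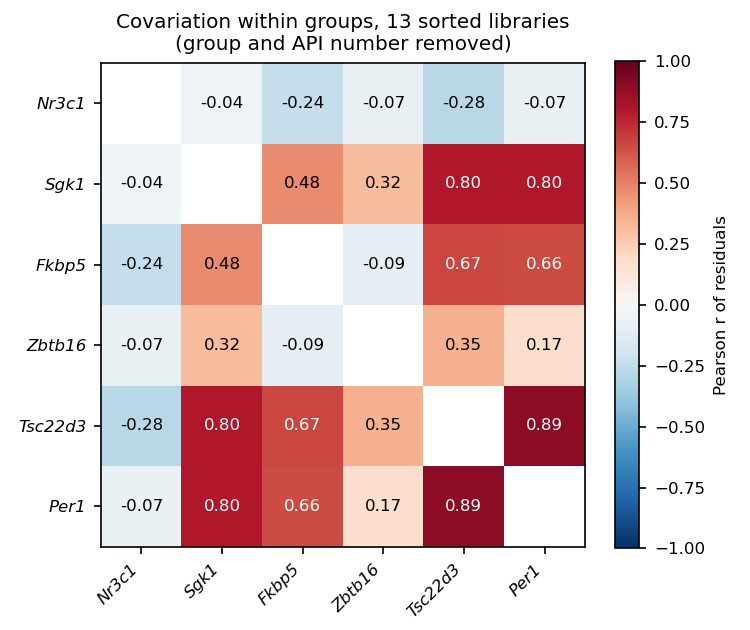
Pearson's r between 6 members over 13 sorted libraries after removal of group and API means (colour scale from -1 to 1, values printed in the cells). Sgk1, Fkbp5, Tsc22d3 and Per1 have values of 0.48 to 0.89 among themselves, and Nr3c1 has values from -0.28 to -0.04.

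Immediate early and heat shock genes, which cells switch on within a short time of a stimulus, moved with the same 4 members. Over the 12 genes of that list the median residual r was 0.79 for Per1, 0.78 for Tsc22d3, 0.74 for Sgk1 and 0.64 for Fkbp5, but -0.05 for Nr3c1 and 0.26 for Zbtb16. Per1 followed Nr4a1, an early gene encoding an orphan nuclear receptor, at 0.92, and Sgk1 followed Zfp36, which encodes an RNA-binding protein that destabilises cytokine messages, at 0.87. Most circadian clock genes moved with them as well, with median residual r of 0.61 for Tsc22d3, 0.60 for Sgk1, 0.38 for Fkbp5 (15 genes each, Per1 included) and 0.50 for Per1 (14 genes). Bhlhe40 was the lowest for each of the 4, from -0.45 with Per1 to -0.28 with Fkbp5. The highest single value among clock genes was 0.93, for Sgk1 with Ciart, a repressor gene of the clock. For the 18 other glucocorticoid-induced genes tested the medians were 0.32 for Per1, 0.31 for Tsc22d3, 0.34 for Sgk1 and 0.10 for Fkbp5. For 16 genes of receptor chaperones and coregulators the median was 0.485 for Fkbp5, above its clock median, and 0.18 to 0.28 for Sgk1, Tsc22d3 and Per1. For 14 inflammatory genes that the receptor represses, the medians of the 4 members were -0.03 to 0.17. The residual r of these members over all tested genes is not given here, so the medians stand without that background. The summed value of the 12 early and heat shock genes was 16204 to 37032 in donor libraries, 8884 to 29761 in GVHD host libraries and 12619 to 31850 in TCD host libraries. It was lowest in the API_183 library of each group and highest in donor library 5, GVHD host library 3 and TCD host library 2. The part of these genes in the members' differences was not tested.

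Over the 13 sorted libraries, group differences included, the genes most like each member were ranked by Pearson's r of log2 values among 11505 genes. Sgk1 was most like Rhoh, a GTPase gene of blood cells (0.98), Cops4 (0.97) and Gem (0.97). Fkbp5 was most like Btk, a tyrosine kinase gene of myeloid and B cells (0.95), Pgbd1 (0.94) and Rcsd1 (0.94), and Zbtb16 most like Minar1, Adam19 and Diaph1 (0.97 each). Tsc22d3 was most like Tuba1c (0.96), Hmox1, the gene of haem oxygenase (0.95), and Naa16 (0.94). Per1 was most like Hspa2, a heat shock protein gene (0.93), Nlrp3, an inflammasome sensor gene (0.89), and Mknk2 (0.89), and Nr3c1 most like Rgmb (0.92), Srsf9 (0.90) and Zzz3 (0.89). These values include the difference between donor and host cells.

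Other genes of the pathway also differed between donor and host cells in both directions. Of 18 other glucocorticoid-induced genes tested in donor macrophages against GVHD host microglia, limma called 6 higher and 5 lower, beside 19.4% higher and 19.2% lower over all tested genes. Cd163, a scavenger receptor gene among the higher ones, reached a value of 1 in no GVHD host library, and without it the count was 5 higher and 5 lower of 17. Anxa1, which encodes annexin A1, a mediator of glucocorticoid action on leukocytes, had a mean of 53.4 ± 37.7 in donor cells and 0.953 ± 0.525 in GVHD host cells (SD, n = 6 and 4; log2 fold change 4.43 ± 0.63, SE). The metallothionein gene Mt1 (0.86 ± 0.12) and Bcl6, a transcriptional repressor (1.00 ± 0.17), were also higher in donor cells. Mertk, a receptor for the uptake of dying cells (-1.30 ± 0.20), was lower. The list median was 0.19, beside 0.04 over all genes.

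Of 16 genes for receptor chaperones, coregulators and the related receptor, 4 were higher and 1 lower in donor cells, a smaller share than the 38.6% called over all tested genes. Hsp90ab1, the constitutive HSP90 beta (0.43 ± 0.13, SE), Hspa8, the constitutive HSC70 (0.69 ± 0.19), and Ncoa2, a coactivator (0.31 ± 0.10), were higher. Nr3c2, the mineralocorticoid receptor gene, which also binds corticosterone, was lower (-0.49 ± 0.14, SE), with at most 9.70 in a donor library and means of 8.53 in donor and 12.4 in GVHD host cells. Of 6 genes for steroid supply and clearance, 2 were called, both higher: Hsd11b1, whose enzyme regenerates active hormone (4.19 ± 3.41 in donor and 0.589 ± 0.251 in GVHD host cells, SD), and Abcb1a, an efflux pump gene (1.49 ± 1.19 and 0.202 ± 0.176 in donor and host cells). Both were low, and their groups overlapped. Neither reached a value of 1 in any host library, so both entered the test through donor cells, and of the other 4 genes none was called.

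Among 14 inflammatory genes that the receptor is known to repress, 4 were higher and 5 lower in donor cells, beside 38.6% of all tested genes called. Il1b, the gene of interleukin 1 beta (2.15 ± 0.28, SE), Vcam1, an adhesion molecule gene (1.96 ± 0.26), and Mmp9, a matrix protease gene (3.58 ± 0.36), were higher, and Il6 was lower (-2.14 ± 0.25). Mmp9, which neutrophils also carry, reached a value of 1 in no GVHD host library (without it, 3 higher and 5 lower of 13), and the neutrophil markers that were higher in the same donor libraries are given above. Of 15 circadian clock genes, Per1 among them, 2 were higher and 4 lower, a share close to that of all tested genes. Arntl, which encodes the activator BMAL1, was higher (0.68 ± 0.13), and Tef (-1.07 ± 0.12), Hlf (-1.34 ± 0.28) and Bhlhe41 (-1.52 ± 0.17), all transcription factors of clock output or feedback, were lower. Hlf reached a value of 1 in no donor library, and without it 2 were higher and 3 lower of 14. In the early gene list 6 of 12 were higher and 1 lower, with Fos (1.05 ± 0.24), Fosb (1.04 ± 0.25) and Nr4a1 (1.59 ± 0.26) higher and Egr1 (-1.28 ± 0.28) lower, and this count too stands beside 38.6% over all tested genes.

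Against TCD host microglia, limma called 4 of the 18 induced genes higher and 6 lower, and 3 of the 16 chaperone and coregulator genes higher and 1 lower, beside 37.0% of all tested genes called (18.4% higher and 18.6% lower). Of the 14 repressed inflammatory genes 7 were higher and 4 lower, and of the 15 clock genes 2 were higher and 5 lower. The steroid supply list (2 higher of 6) and the early gene list (6 higher and 1 lower of 12) had the same counts as against GVHD host cells, and again the 2 steroid supply genes entered through donor cells alone. Without Hlf, which did so through host cells, the clock count was 2 higher and 4 lower of 14. Cdkn1a, a cell cycle inhibitor gene that glucocorticoids induce, was among the lower ones, at 157 ± 116 in donor and 686 ± 225 in TCD host cells (SD, n = 6 and 3; log2 fold change -2.57 ± 0.46, SE). The coactivator gene Ncoa1 (0.83 ± 0.20) and the clock repressor gene Bhlhe40 (2.68 ± 0.56) were higher. Between GVHD and TCD host microglia none of the genes in these 6 lists was called. The inflammatory list had 13 of 14 positive fold changes there, with a median of 0.60, beside -0.03 over all genes. The share of positive fold changes over all genes is not given here. The summed values of this list overlapped, at 1326 to 4387 in GVHD host and 707 to 3637 in TCD host libraries. The lowest sum was that of TCD host library 1, whose description carries Syn.

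In hippocampus, GVHD and TCD mice did not differ detectably in the receptor or any of its 6 targets. None of the 7 was called, against 0.479% of all 14404 tested genes (69 genes), and 2449 genes had an unadjusted p under 0.05. The groups overlapped for all 7, against 24.0% of all tested genes without overlap. Nr3c1 had 117, 121 and 129 in GVHD libraries 1 to 3, against 122, 118 and 129 in TCD libraries 1 to 3. The groups lay on top of each other, with a log2 fold change of 0.00 ± 0.07 (SE). Klf9, with 123, 122 and 135 in GVHD libraries and 142, 121 and 119.6 in TCD libraries, also overlapped fully (-0.01 ± 0.09, SE).

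Sgk1 had the largest difference of the 7, with 67.9, 52.8 and 76.6 in GVHD libraries and 79.0, 50.8 and 47.1 in TCD libraries. Its log2 fold change was 0.18 ± 0.20 (SE, limma adjusted p = 0.703), and the highest library of all was a TCD library. Without that library, TCD library 1, the value was 0.40 (limma adjusted p = 0.213), and without TCD library 3 it was 0.04 (limma adjusted p = 0.945). Per1 had 55.5, 59.9 and 58.0 in GVHD libraries, against 67.1, 60.7 and 56.9 in TCD libraries (-0.09 ± 0.08, SE, limma adjusted p = 0.642). The groups overlapped for the remaining 3 as well: Fkbp5 averaged 46.6 ± 6.41 in GVHD and 45.9 ± 8.20 in TCD mice, Zbtb16 44.6 ± 5.14 and 43.2 ± 3.34, and Tsc22d3 46.6 ± 2.16 and 47.2 ± 0.914 (SD, n = 3 each). The 95% confidence intervals of the 7 genes together spanned 0.811-fold to 1.55-fold. The groups of 3 against 3 cannot go below p = 0.1 in an exact permutation test, and the exact two-sided p of the members was 0.4 to 1.0.

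**Figure D5:**
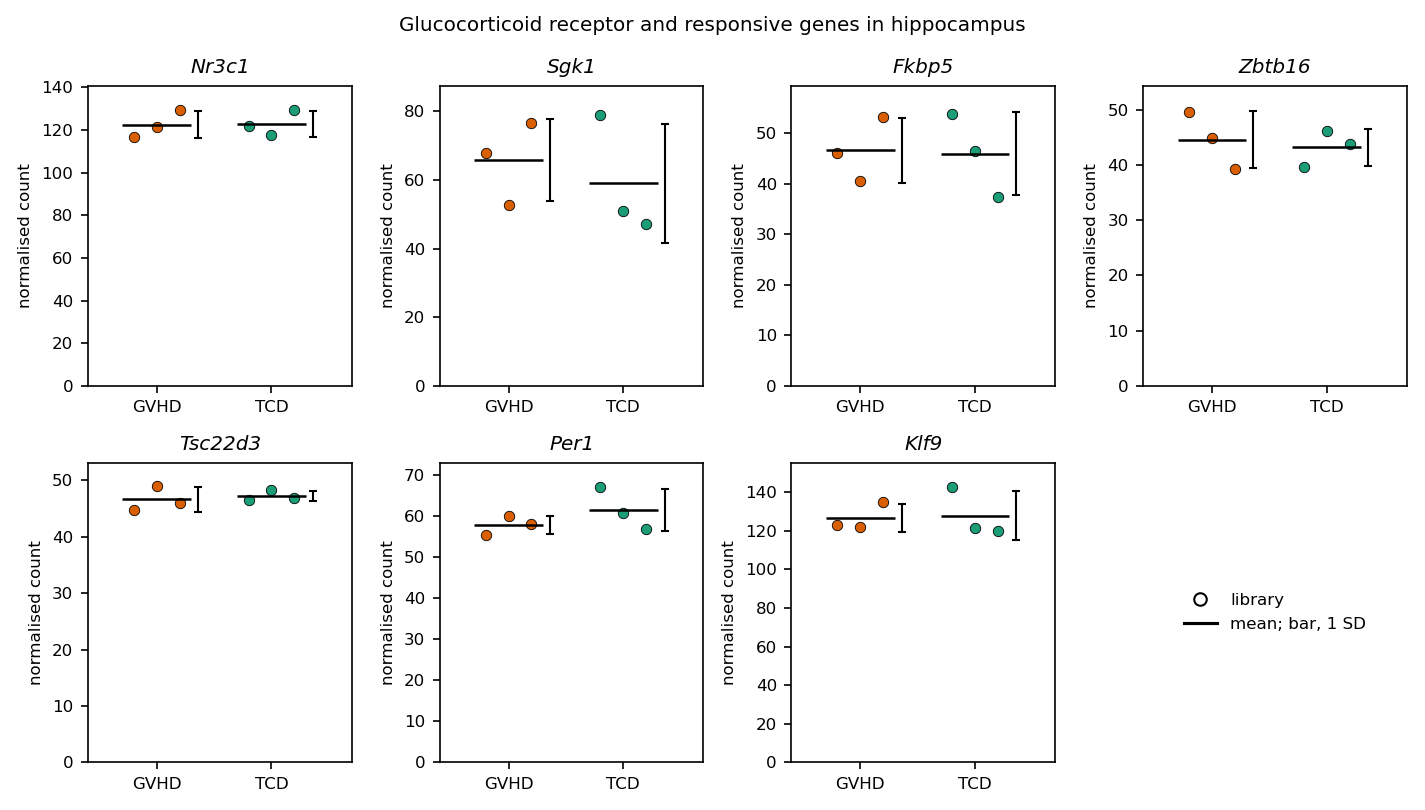
Normalised count of the 7 genes (vertical axes from 0) in 3 GVHD and 3 TCD hippocampus libraries; the line is the group mean and the bar 1 SD. The groups overlap for every gene.

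Zbtb16 and Klf9, the lowest members in sorted cells, ran from 39.3 to 49.6 and from 119.6 to 142 in the hippocampus libraries, and Klf9 had the highest mean level per kilobase of the 7 in GVHD hippocampus (26.3), followed by Nr3c1 (15.9) and Sgk1 (13.4). The 2 tables were normalised separately, so levels are compared within each. In a bulk tissue, fewer cells of a type and less RNA per cell cannot be told apart. Sgk1, Fkbp5 and Klf9 had the highest residual r of the member pairs across hippocampus libraries within the groups. It was 0.94 for Sgk1 with Klf9, 0.91 for Sgk1 with Fkbp5 and 0.86 for Fkbp5 with Klf9 (6 libraries), as GVHD library 3 and TCD library 1 were high in all 3. The other pairs went both ways, from -0.81 for Zbtb16 with Klf9 to 0.745 for Per1 with Klf9. Sgk1 with Tsc22d3, at 0.80 in sorted cells, had -0.58 here. TCD library 1 also had the highest library total, and these values carry no p. Markers of the choroid plexus, tissue that borders the hippocampus, differed strongly. By limma 9 of 10 were higher in GVHD mice, beside 0.479% of all tested genes called. Folr1, Kcne2, Otx2 and Aqp1 reached a value of 1 on 1 side only, and without them 5 of 6 were higher. The 10 markers together summed to 1629 to 5322 in GVHD libraries and 177 to 266 in TCD libraries. Their part in the members' values was not tested.

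None of the 6 other lists had a called gene in hippocampus. The numbers tested were 22 induced genes, 16 chaperones and coregulators, 7 genes of steroid supply, 5 repressed inflammatory genes, 16 clock genes and 11 early genes, with medians of -0.02, -0.08, 0.04, 0.27, -0.06 and 0.02, beside 0.00 over all genes. The effect of GVHD in hippocampus minus that in host microglia lay between -0.36 for Per1 and 0.42 for Tsc22d3 on the log2 scale in the 6 members tested in both, taken as differences of group means without the API term. The two-sided exact permutation p over 700 relabellings was 0.41 to 0.751 (0.960 to 0.998 adjusted over 11208 genes). The smallest p these relabellings can give is 0.00143, which 321 genes would have to share for any to pass the adjustment, and 30 did, so the adjusted p has no bearing on whether the effects differ. Of all genes, 706 had an unadjusted p under 0.05.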

How the data were processed

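RNA was measured in 6 hippocampus and 13 sorted-cell libraries. The authors deposited normalised counts, a signal whose scaling is not given in the sources used here. The tools cutadapt 1.9, STAR 2.5.2a and RSEM 1.2.30 and the build GRCm38 stand in the submitters' processing notes. Most low values were integer multiples of 1 step, read as the value of 1 read (80.0% to 81.9% of low hippocampus values and 68.4% to 74.1% of low sorted values, tolerance 0.02 of a step), which gave the estimated depths. Whole reads could not be recovered, so no count test was run. Symbols and exon lengths came from GENCODE on GRCm38 (182 and 203 identifiers without a match).

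The model was limma 3.58.1 (R 4.3.3) on log2 of the value plus 1 with a variance trend, for genes that reached 1 in 3 or more libraries. Two-sided p-values were adjusted by Benjamini-Hochberg over every gene tested. Sorted cells had 1 model over 13 libraries with the API number as a covariate. Replicates are separate samples per the labels; whether each is 1 mouse is not stated for sorted cells, and p-values then measure only the spread between these samples. The models were tested on simulated data, in which libraries were independent and had no API effect. That simulation does not cover the shared deviations given next, and its recovery of changed genes is not given here. Same-numbered donor and GVHD host libraries of the descriptions deviated together (r of 0.17 to 0.39 in 4 pairs, all above 0.1) and were treated as pairs in an alternative block. By title number, donor and TCD host libraries also did (0.31 to 0.59 in 3 pairs), though they come from different mice. By the other title numberings only some pairs did. The r was -0.02 to 0.39 for donor with GVHD host libraries, -0.02 to 0.22 for GVHD host with TCD host libraries, and -0.18 to -0.04 in hippocampus. Description numbers were checked between donor and GVHD host libraries only. API means were not removed from these deviations, so a shared API number enters r, and r cannot show what a shared number marks.

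The members and lists were chosen with earlier results of these data known. Named genes were the 7 members, up to 4 called genes with the smallest p per list and comparison, and the 3 genes most like each member, passing over predicted genes. Alternatives covered the pseudocount, the filter, scaling, the variance trend, single libraries, blocks, the API covariate and GC content.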

Additional observations from a re-analysis of the deposited data

How the results depend on the processing

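The number of members called kept to within 1.5 times its value in every comparison under every alternative tried. With single libraries left out it was 0 in hippocampus, 4 in donor against GVHD host cells, 0 in GVHD against TCD host cells and 3 to 5 in donor against TCD host cells. The number of all genes called in hippocampus, 69, was 39 with quantile normalisation, 0 without the variance trend, 16 with the replicate block, 33 with GC correction, 18 with both, and 0 to 123 with single libraries left out. That of GVHD against TCD host cells, 14, was 2 with the replicate block, 1 among API_197 libraries, 0 with only these 2 groups fitted, and 6 to 28 with single libraries left out. The causes were not tested.

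Uncalled fold changes near 0 changed sign. In hippocampus, Nr3c1 was 0.0477 and Klf9 0.0533 with quantile normalisation, and Per1 was 0.0603 with GC correction, with or without the replicate block. With single libraries left out, hippocampus values ran from -0.0451 to 0.033 for Nr3c1, -0.1083 to 0.1473 for Fkbp5, -0.0364 to 0.1274 for Zbtb16, -0.0556 to 0.008 for Tsc22d3 and -0.058 to 0.0689 for Klf9. Those of GVHD against TCD host cells ran from -0.3364 to 0.0947 for Nr3c1, -0.2601 to 0.0299 for Fkbp5 and -0.3544 to 0.6795 for Per1. Values under about 1 rest on few reads.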
